A study of Homo sapiens with 18 samples.

Results

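The interferon regulatory factors (IRFs) are a family of transcription factors, and 8 of the 58051 genes counted in this series were followed here: IRF1, IRF2, IRF3, IRF4, IRF5, IRF7, IRF8 and IRF9. They were chosen by family membership and name, not by their values, and each matched 1 Ensembl gene. Of these, 7 (all but IRF4) had enough counts to be among the 15037 genes tested.

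RNA was sequenced from THP-1, an established line of human monocytic leukaemia whose cells become macrophage-like under phorbol ester (PMA). Cells carried a GFP-marked retroviral vector of 1 of 3 kinds: IRES (the empty vector), NIC1 (a MYC-tagged NOTCH1 intracellular domain, the active form of the receptor) or DNMAML (a dominant-negative Mastermind-like protein, which blocks transcription through the Notch complex). All groups, controls included, were virally transduced, sorted for GFP and given PMA at 5 ng/ml for 48 h, and the IL-4 groups then received IL-4 at 20 ng/ml for 3 h. The study set raised and lowered Notch signalling against each other in IL-4-stimulated cells. The 18 libraries form 6 groups of 3: IRES, NIC1 and DNMAML, each unstimulated and with IL-4. In every group the sample titles carry the prefix Ex with 1, 2 or 3, read here as experiment numbers. No label says whether equal numbers share a culture or a transduction. Each p-value thus rests on how far these libraries differ, and some of that may be technical.

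All IRFs share an N-terminal DNA-binding domain that reads GAAA-type repeats, the core of interferon-stimulated response elements. IRF3, IRF5 and IRF7 lie dormant in the cytoplasm until pattern-recognition receptors activate them, and they then switch on interferon genes. IRF9 is the DNA-binding subunit of the complex that acts downstream of the interferon receptors, IRF1 activates and IRF2 mostly antagonises targets of that response, and IRF4 and IRF8 work with partners such as SPI1 and BATF proteins to set myeloid and lymphoid identity. IL-4 signals through STAT6, and in macrophages IRF4 is the family member best known for a part in the alternative activation that IL-4 brings about.

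Counts assigned to genes came to 12410668 to 15099788 per library. There were 2 libraries that stood apart in how many genes were detected (1 count or more), IRES unstimulated replicate 3 with 23179 and DNMAML with IL-4 replicate 3 with 25322, against 21067 to 21557 in the other 16, and several log2 changes of IRFs, with the IL-4 calls that leaving them out ended, are given without them as well. NOTCH1, part of which the NIC1 vector carries, was at 188 ± 40.5 CPM (counts per 1000000 counted reads, scaled between libraries; SD, n = 3) in unstimulated IRES cells and 287.5 ± 55.3 in NIC1 cells, and MAML1 was at 88.9 ± 9.32 in IRES and 131 ± 8.08 in DNMAML cells. CISH, a STAT6 target, rose from 1.57 ± 0.434 to 114 ± 12.9 CPM with IL-4 in IRES cells. All 14 monocyte and macrophage markers were tested, with a summed level of 1644 to 2007 CPM; ITGAM and CSF1R were high (medians of 319 and 234 CPM), and CD14 and CD68 were low (medians of 3.21 and 0.831 CPM).

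Start-site windows from RefSeq (GRCh38.p14, 250 bases before to 50 after a start) covered 5 of the 8 genes. These windows were searched on both strands for the letters that STAT dimers favour (TTCNNNGAA, and the same outer letters with 4 bases between them, the spacing STAT6 prefers), for an IRF repeat (GAAA, any 2 bases, GAAA) and for the core that RBPJ, the DNA-binding partner of the Notch intracellular domain, reads (GTGGGAA). They are shown because IL-4 acts through STAT6 and the constructs act on the RBPJ complex. The stretches below hold the matches, in capitals, and run 5′ to 3′ on the gene's strand; for IRF1 the stretch is the part of the window outside annotated exons, and for the others it is 30 bases around the match.
IRF1 (chr5:132490799-132491023, minus strand, STAT letters in capitals): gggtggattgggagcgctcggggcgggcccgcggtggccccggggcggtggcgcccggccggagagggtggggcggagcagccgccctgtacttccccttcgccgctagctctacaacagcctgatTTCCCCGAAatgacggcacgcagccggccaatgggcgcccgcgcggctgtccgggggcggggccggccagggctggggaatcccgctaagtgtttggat
IRF9 (chr14:24161192-24161221, plus strand, STAT letters in capitals): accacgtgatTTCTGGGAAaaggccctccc
IRF8 (chr16:85902786-85902815, plus strand, RBPJ letters in capitals, read on the minus strand): tggctgcaggtTTCCCACggagctttcagt
IRF4 (chr6:391723-391752, plus strand, RBPJ letters in capitals, read on the minus strand): aaagttcctctTTCCCACctcgcactctca
The match began 124 bases before the start in IRF1, 63 before it in IRF9, 33 before it in IRF8 and 18 before it in IRF4. Of all 35116 windows of the same length in that table, 7.66% held TTCNNNGAA and 6.25% held GTGGGAA, so single matches like these are common. The STAT letters with 4 bases between (in 6.44% of all windows) and the IRF repeat (in 3.57%) occurred in none of the 9 windows of these 5 genes. The IRF8 windows lie inside the gene, downstream of the first start GENCODE gives at position 85898803 of chromosome 16. The 4 IRF5 windows held none of the letters searched. A match is a run of letters and not evidence of binding, and its absence says nothing about a factor.

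Levels of the genes were first set against each other per kilobase of exon, since longer genes collect more reads. IRF3, IRF7 and IRF2 formed the upper end, with medians over 18 libraries of 24.7, 19.8 and 13.9 CPM per kilobase. IRF1 (4.35), IRF8 (3.67) and IRF5 (3.47) lay in the middle, IRF9, the DNA-binding subunit of the interferon complex, was lower at 1.44, and IRF4 was at 0.0255 CPM per kilobase. The ranges over all 18 libraries overlapped between IRF3 (20.5 to 29.2) and IRF7 (8.29 to 29.8), between IRF7 and IRF2 (10.9 to 17.6), at the edge between IRF7 and IRF8, and among IRF1 (2.62 to 6.20), IRF8 (0.936 to 8.32) and IRF5 (2.32 to 5.29). IRF9, at 1.03 to 2.35, overlapped IRF8 and the lower edge of IRF5 but not IRF1. IRF4, at 0 to 0.137, lay below all the others. The order of the medians was the same when the length was that of the longest principal transcript, or only the exon bases that no other gene covers. A change of length does not bring back reads lost in shared exons, so this leaves the rank of IRF9 unsettled.

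**Figure D1:**
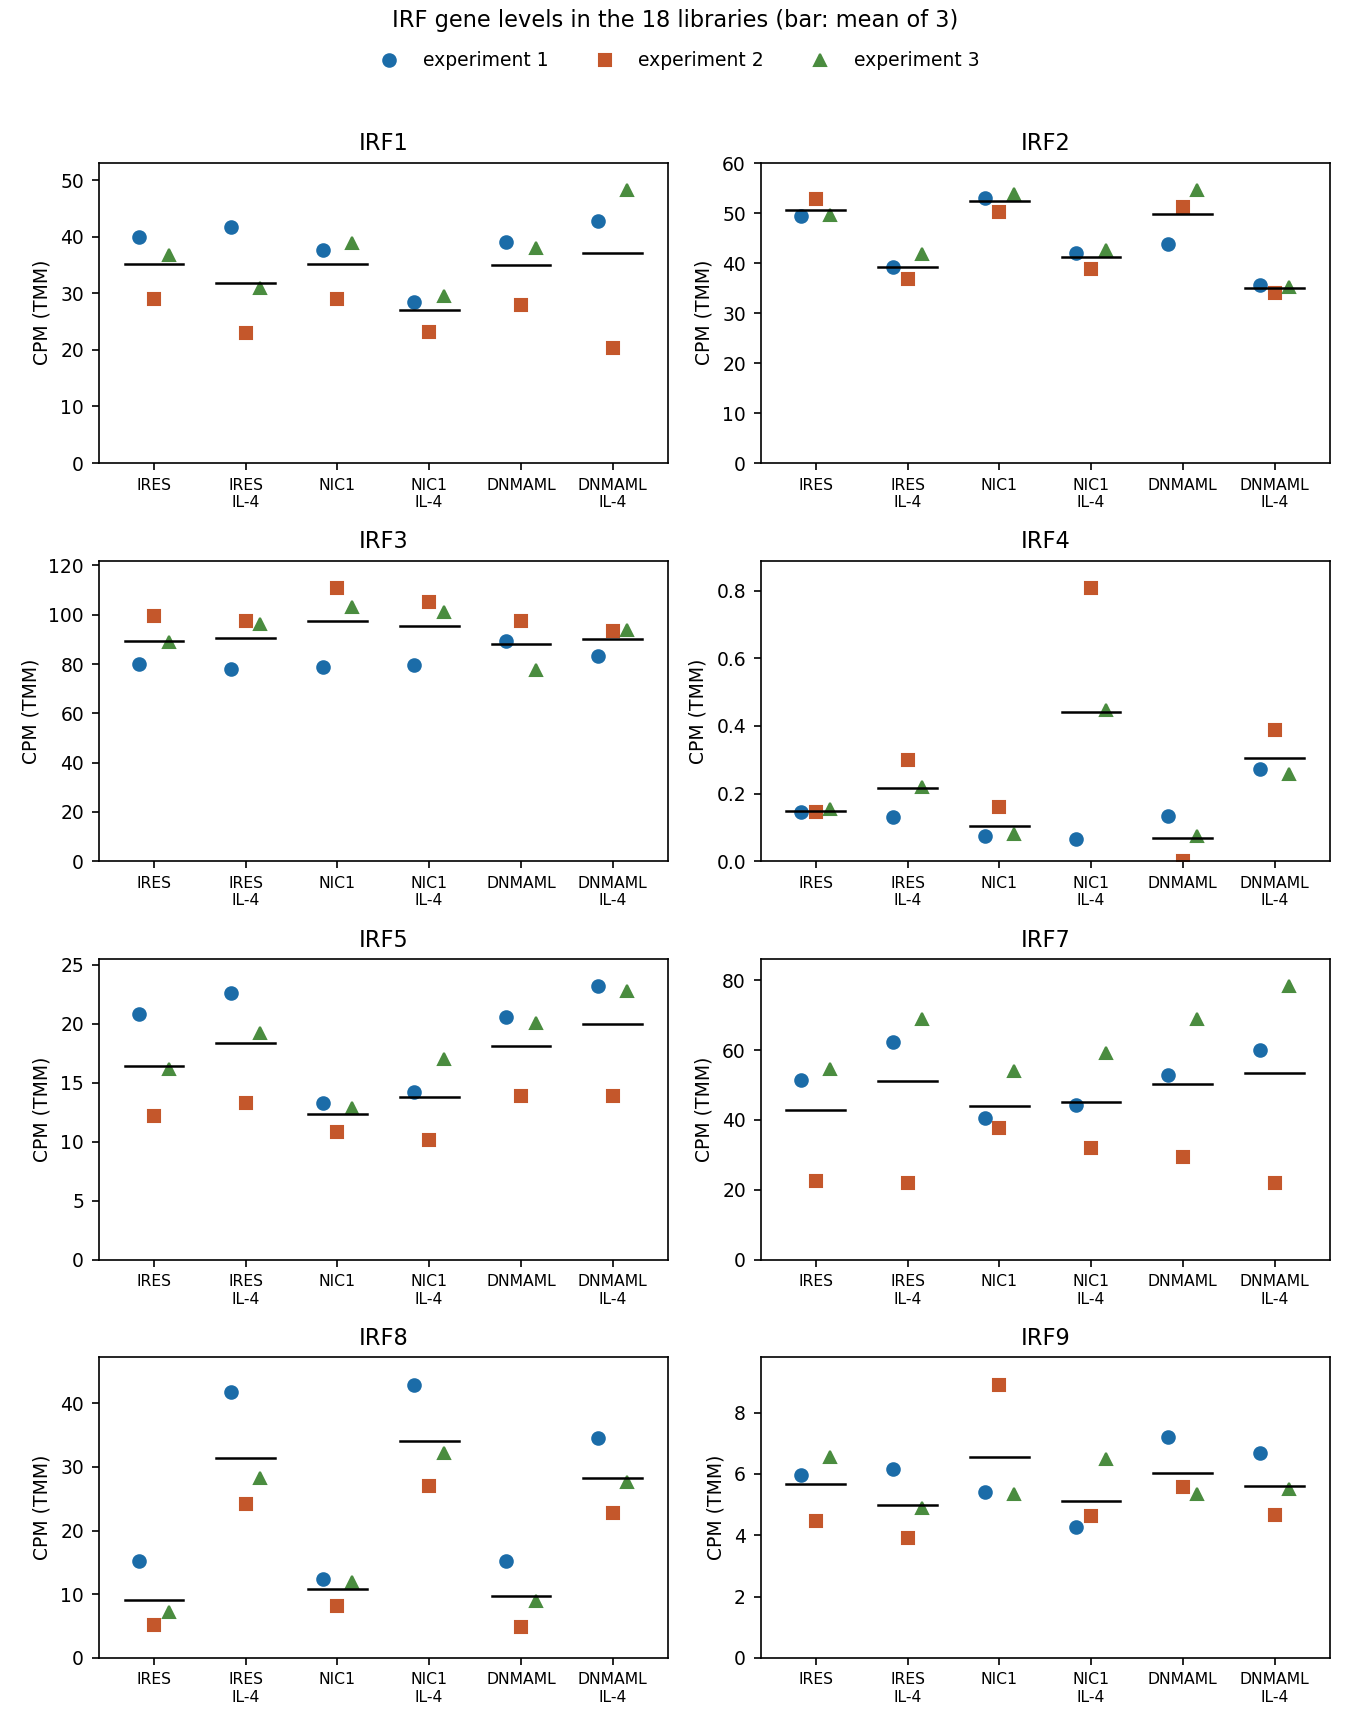
Level of each of the 8 IRF genes in CPM (y axis, linear, a scale of its own in each panel) in the 18 libraries by group (x axis), with a marker shape for each experiment number and a bar at the mean of 3 libraries. IRF8 is higher and IRF2 lower in every IL-4 group, while experiment 2 (squares) is lowest for IRF7 in every group.

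IRF8 (ENSG00000140968, chromosome 16, 85898803 to 85922609, plus strand, with all gene positions in GRCh38) is the partner of SPI1 that sets monocyte and dendritic cell identity. Among the 7 tested IRF genes it was the only one called higher with IL-4, in IRES and NIC1 cells in the main model. In IRES cells it was at 15.2, 5.12 and 7.17 CPM in experiments 1, 2 and 3 without IL-4, and at 41.8, 24.2 and 28.2 CPM with IL-4. In NIC1 cells the values were 12.3, 8.12 and 11.8 CPM without IL-4 and 42.9, 27.0 and 32.2 CPM with it. In DNMAML cells they were 15.2, 4.83 and 8.95 CPM without IL-4 and 34.5, 22.7 and 27.7 CPM with it. The unstimulated and IL-4 libraries did not overlap in any construct, and within each group experiment 1 was highest and experiment 2 lowest.

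The mean of IRF8 went from 9.16 ± 5.31 to 31.4 ± 9.21 CPM (SD, n = 3) in IRES cells, a log2 change of 1.78 ± 0.409 (SE) with an adjusted p of 0.0261 by edgeR's quasi-likelihood test. In NIC1 cells it went from 10.8 ± 2.30 to 34.0 ± 8.13 CPM, a log2 change of 1.66 ± 0.406 with an edgeR adjusted p of 0.0375. In DNMAML cells it went from 9.66 ± 5.21 to 28.3 ± 5.92 CPM, a log2 change of 1.55 ± 0.406, and the edgeR adjusted p of 0.0556 missed the threshold of 0.05. With the experiment number as a block in the model, which takes out the ranking of experiments seen in every group, the adjusted p was 1.44e-06, 2.94e-06 and 5.88e-06 in IRES, NIC1 and DNMAML cells, so the DNMAML change also passed. Without the 2 libraries that stood apart the log2 change in IRES cells was 1.63 with an adjusted p of 0.181, and that in NIC1 cells 1.66 with an adjusted p of 0.0708. Leaving out any 1 NIC1 library also ended the call there (adjusted p of 0.0522 to 0.167). In IRES cells, leaving out unstimulated replicate 2 or 3, or IL-4 replicate 1 or 3, ended it (0.0603 to 0.144), and in DNMAML cells leaving out unstimulated replicate 1 made the call (0.0238). With no filter on low counts the adjusted p was 0.0978 in IRES and 0.134 in NIC1 cells. With only the groups compared it was 0.162 in IRES, 0.00796 in NIC1 and 0.181 in DNMAML cells. DESeq2 gave adjusted p of 0.000332, 0.00103 and 0.00309 in IRES, NIC1 and DNMAML cells. The leave-outs and these other refits held no experiment block, so differences between experiments stayed in their error. In NIC1 cells the SE was 0.406 without the block and 0.169 with it.

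IRF2 (ENSG00000168310, chromosome 4, 184387713 to 184474580, minus strand), which binds the same elements as IRF1 and mostly opposes it, fell with IL-4 in all 3 constructs. In IRES cells it was at 49.4, 52.8 and 49.6 CPM without IL-4 and at 39.3, 36.9 and 41.8 CPM with it. In NIC1 cells it was at 53.0, 50.3 and 53.8 CPM and then 42.1, 38.8 and 42.7 CPM. In DNMAML cells it was at 43.9, 51.2 and 54.7 CPM and then 35.7, 34.1 and 35.2 CPM. The lowest unstimulated library in each construct stood above the highest IL-4 library, and unlike IRF8 the gene had no common order of experiments.

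The log2 change of IRF2 was -0.36 ± 0.0787 in IRES cells (edgeR adjusted p = 0.0151), -0.35 ± 0.0787 in NIC1 cells (0.0194) and -0.51 ± 0.0789 in DNMAML cells (0.000833). These are changes of 50.6 ± 1.93 to 39.3 ± 2.45 CPM, 52.4 ± 1.83 to 41.2 ± 2.12 CPM and 49.9 ± 5.51 to 35.0 ± 0.832 CPM (SD, n = 3). Without the 2 libraries that stood apart, the fall in IRES cells was -0.38 with an adjusted p of 0.0631. In IRES cells the call was lost without unstimulated replicate 2, IL-4 replicate 1 or IL-4 replicate 2 (0.0599 to 0.0915). In NIC1 cells it was lost without unstimulated replicate 1 or 3, or IL-4 replicate 1 or 2 (0.0591 to 0.11). In DNMAML cells the call held in all 6 leave-outs, with adjusted p of at most 0.00758. Fitting only the groups compared ended the call in all 3 constructs (0.116, 0.0658 and 0.051 in IRES, NIC1 and DNMAML cells). Testing with no filter on low counts ended it in IRES (0.0771) and NIC1 cells (0.105). In the same order of constructs, the call was kept by DESeq2 (0.00193, 0.00345 and 1.09e-06) and by the experiment block (0.00132, 0.00219 and 3.19e-05). The leave-outs and other refits held no block. For IRF2 the block changed the SE little (0.0717 with it in IRES cells).

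Thus 2 of the 7 tested IRFs changed in IRES and in NIC1 cells and 1 in DNMAML cells, against 2.93%, 3.05% and 3.28% of all tested genes in these 3 responses. With the experiment block the count in DNMAML cells was 2 of 7, where 9.95% of all genes were called. Groups did not overlap for IRF8 and IRF2 alone among the 7, in each construct, and 13.3%, 14.9% and 14.1% of all genes had no overlap. The median log2 change of the 7 was 0.02, -0.03 and 0.09 in IRES, NIC1 and DNMAML cells, beside -0.00, -0.01 and -0.01 over all genes tested. In bulk RNA, a change in the share of cells with a transcript and a change in its amount per cell cannot be told apart.

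**Figure D2:**
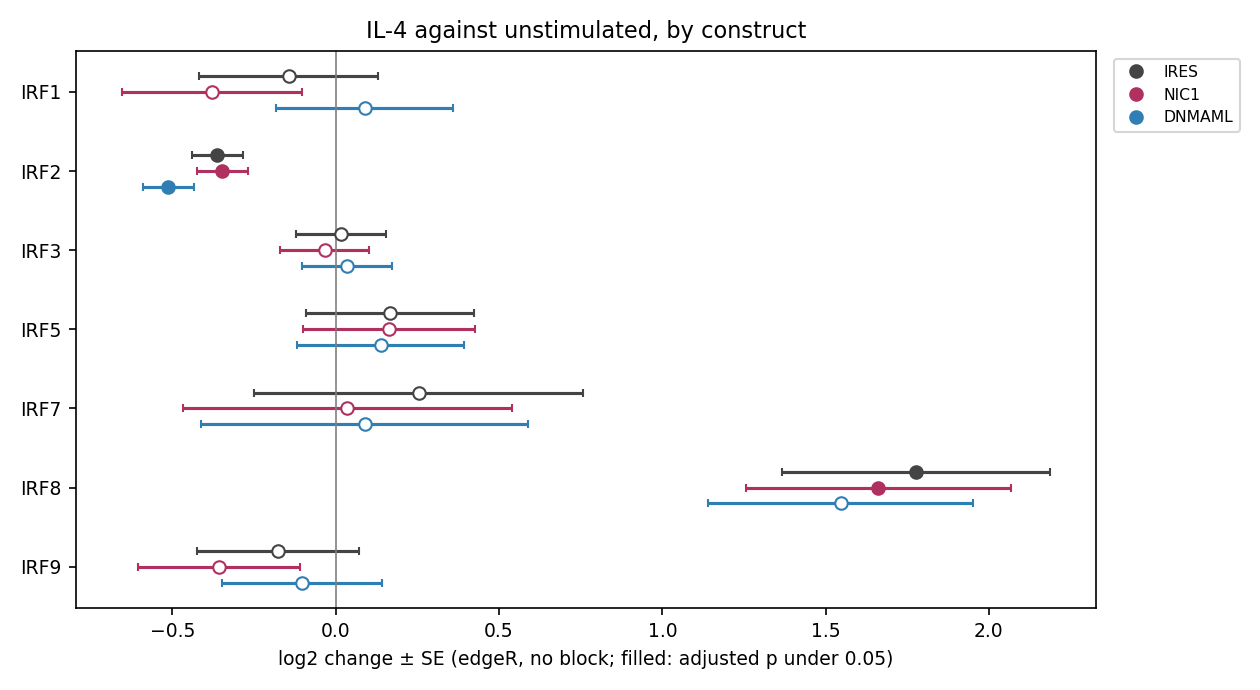
Log2 change with IL-4 against unstimulated cells (x axis) for the 7 tested IRF genes (y axis) in IRES, NIC1 and DNMAML cells, as points with bars of 1 SE from edgeR; filled points have an adjusted p under 0.05. IRF8 lies between 1.55 and 1.78 and IRF2 between -0.51 and -0.35. The IRF8 point of DNMAML cells and all points of the other genes are open.

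IRF8 and IRF2 moved in opposite directions across the libraries, with a Pearson correlation of log2 CPM of -0.79 over 18 libraries and of -0.87 once each experiment was centred on its own mean. These libraries share the IL-4 contrast and their experiments, so the value describes their joint course. The genes most like IRF8 in log2 CPM over the 18 libraries were SPN (Pearson r = 0.969), FCGR2A (0.962) and CEBPA (0.961). Those most like IRF2 were HIVEP1 (0.941), RAB7B (0.915) and PLIN2 (0.911).

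IRF8 is also strongly expressed by dendritic and B cells, and of the markers of those cells some were near 0 and others were not. CLEC4C, which defines plasmacytoid dendritic cells, had 0 counts in all 18 libraries, and LILRA4 had 15 counts in all. CLEC9A had 3, XCR1 9 and FCER1A 6 counts in all 18 libraries, and MS4A1, a B cell marker, had 2. The B cell markers CD79A (median of 6.4 CPM over the 18 libraries), EBF1 (3.4) and PAX5 (3.0) had enough counts to be tested. ZBTB46 (median of 128 CPM over the 18 libraries), PRDM1 (68.5), IL3RA (35.2) and TCF4 (27.8), which other cells express as well, were above the median of 19.0 CPM for IRF8, and FLT3 was at 10.2 CPM. Of the 7 plasmacytoid markers 6 were detected, and they summed to 65.4 to 71.9 CPM in unstimulated and 63.6 to 71.0 CPM in IL-4-treated IRES cells, 71.2 to 83.2 and 76.5 to 87.5 in NIC1 cells, and 66.2 to 75.7 and 68.7 to 79.3 in DNMAML cells. All 8 conventional dendritic cell markers were detected, and their sum went from 144 to 171 CPM without IL-4 to 133 to 157 CPM with it in IRES cells, from 141 to 182 to 138 to 167 in NIC1 cells and from 153 to 159 to 136 to 147 in DNMAML cells. The 9 B and plasma cell markers summed to 78.8 to 96.7 CPM over all unstimulated and 66.1 to 93.0 CPM over all IL-4 libraries. The part of these transcripts in the IRF8 change was not tested.

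IRF4 (ENSG00000137265, chromosome 6, 391739 to 411447, plus strand), the member best known for alternative activation, was barely detected: it had 53 counts in all 18 libraries. The counts of the 3 libraries were 2, 2 and 2 in unstimulated IRES cells and 2, 4 and 3 with IL-4. They were 1, 2 and 1 and then 1, 11 and 6 in NIC1 cells, and 2, 0 and 1 and then 4, 5 and 4 in DNMAML cells. The sums over a group went from 6 to 9, from 4 to 18 and from 3 to 13 counts with IL-4, and only in DNMAML cells were all IL-4 libraries above all unstimulated ones in CPM. IRF4 was left out of the main test by its counts. In a fit with no filter on low counts its IL-4 response had edgeR adjusted p of 1, 0.595 and 0.767 in IRES, NIC1 and DNMAML cells, so a difference was not detectable at this depth.

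IRF5 (ENSG00000128604, chromosome 7, 128937612 to 128950035, plus strand), an IRF of Toll-like receptor signalling that is tied to inflammatory macrophages, was lower in NIC1 cells than in both other constructs in every experiment. In unstimulated cells it was at 20.8, 12.2 and 16.1 CPM in IRES, 13.2, 10.8 and 12.9 CPM in NIC1 and 20.6, 13.8 and 20.0 CPM in DNMAML cells, for experiments 1, 2 and 3. With IL-4 it was at 22.6, 13.3 and 19.2 CPM in IRES, 14.2, 10.1 and 17.0 CPM in NIC1 and 23.2, 13.9 and 22.8 CPM in DNMAML cells. NIC1 thus had the lowest value of the 3 constructs in each experiment, without and with IL-4. The NIC1 and DNMAML groups did not overlap in unstimulated cells (as in 16.3% of all genes), while the NIC1 and IRES groups overlapped, since the IRES library of experiment 2 lay below those of NIC1 experiments 1 and 3.

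Against IRES, IRF5 in NIC1 cells had a log2 difference of -0.41 ± 0.263 unstimulated and -0.42 ± 0.259 with IL-4, with edgeR adjusted p of 0.832 and 1. With the experiment block the adjusted p was 0.0435 and 0.0278. In the model without the block, the unstimulated difference was -0.20 without IRES replicate 1, and the difference with IL-4 was -0.24 without IRES replicate 1 and -0.24 without NIC1 replicate 2. Against DNMAML the log2 difference was -0.56 ± 0.262 unstimulated and -0.54 ± 0.259 with IL-4, with adjusted p of 0.368 and 0.444 in the main model and 0.002 and 0.00189 with the block. The block therefore decides whether IRF5 passes. Its p-values may be too small if the unstimulated and IL-4 libraries of a construct and number came from the same culture, since it takes them as independent. IL-4 itself left IRF5 with log2 changes of 0.17 ± 0.258, 0.16 ± 0.264 and 0.14 ± 0.256 in IRES, NIC1 and DNMAML cells, none past the test, and the DNMAML value was 0.03 without the 2 libraries that stood apart.

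Between constructs the 7 IRFs gave 0 calls by edgeR in the main model, and DESeq2 gave 0 as well. For NIC1 against IRES the background was 0.233% of genes unstimulated and 0.2% with IL-4, and none of the 7 was under an unadjusted p of 0.05. For NIC1 against DNMAML the background was 1.65% and 1.44%, and 1 gene was under an unadjusted 0.05 in each, IRF5 unstimulated and IRF2 with IL-4. For DNMAML against IRES no gene at all was called (0%), with 371 and 357 of 15037 genes under an unadjusted 0.05, among them IRF2 with IL-4. With the block, 1 of 7 was called in NIC1 against IRES in each state (IRF5; 5.37% and 5.44% of all genes), 1 in unstimulated NIC1 against DNMAML (IRF5; 13.8%) and 2 with IL-4 (IRF5 and IRF2; 12.6%).

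After IL-4, IRF2 was lowest in DNMAML cells, but its differences from the other constructs did not pass in the main model. Its 3 DNMAML libraries, at 35.7, 34.1 and 35.2 CPM, lay below every IRES and NIC1 library with IL-4, while the IRES and NIC1 groups overlapped. The log2 difference of NIC1 from DNMAML was 0.24 ± 0.0791 (edgeR adjusted p = 0.204, and 0.0369 with the block), and NIC1 was higher in 3 of 3 experiments. DNMAML differed from IRES by -0.17 ± 0.0791 (unadjusted p = 0.048 by edgeR, adjusted p = 1, and 0.565 with the block). Groups without overlap made up 15.7% and 5.48% of all genes in these comparisons.

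The summed level of T cell markers was higher in NIC1 cells, but the list did not move as a whole. The 8 markers, all detected, summed to 125 to 159 CPM in unstimulated and 114 to 137 CPM in IL-4-treated NIC1 cells, against 76.2 to 106 CPM over the IRES and DNMAML libraries. TRAC (73.7 to 113 CPM over the 18 libraries) and CD3D (0.885 to 41.7 CPM) made up most of the sum. TRAC was thus high in every library, while CD3D and CD3G (0 to 4.79 CPM) ranged widely for their level. LCK had a median of 1.14 CPM, and CD3E, CD2, CD5 and CD247 each had a median of 0 CPM. The part of these transcripts in the IRF5 and IRF2 differences was not tested.

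**Figure D3:**
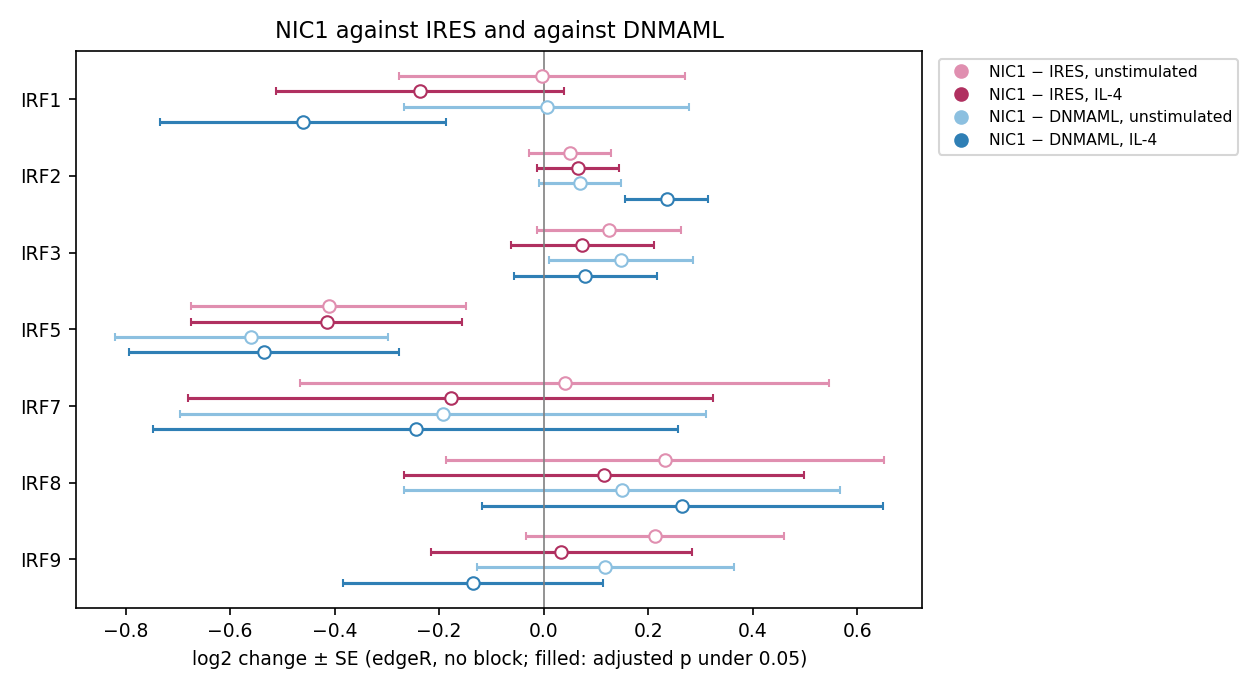
Log2 difference of NIC1 from IRES and from DNMAML (x axis), unstimulated and with IL-4, for the 7 tested IRF genes (y axis), as points with bars of 1 SE from edgeR without the experiment block; filled points would mark an adjusted p under 0.05. All points are open, and the 4 IRF5 points lie between -0.56 and -0.41.

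The IL-4 responses of the IRFs were then compared between constructs. No difference in response was called for any of the 7 by edgeR (0% of all genes in each of the 3 comparisons), none was under an unadjusted p of 0.05, and DESeq2 also called 0. For IRF8 the response in NIC1 cells differed from that in IRES cells by -0.12 (2 SE either side: -1.25 to 1.02) and that in DNMAML cells by -0.23 (-1.37 to 0.91) on the log2 scale, and these were 0.03 and -0.07 without the 2 libraries that stood apart. For IRF2 the differences were 0.02 (-0.21 to 0.24) and -0.15 (-0.37 to 0.07), and 0.17 (-0.06 to 0.39) between NIC1 and DNMAML. All these intervals come from the model without the experiment block and are wide for IRF8. With the block the IRF8 differences from IRES were -0.15 ± 0.246 in NIC1 and -0.22 ± 0.247 in DNMAML cells (SE), and neither was called. Neither model shows that the constructs respond alike.

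IRF3 (ENSG00000126456, chromosome 19, 49659569 to 49665875, minus strand) and IRF7 (ENSG00000185507, chromosome 11, 612553 to 615999, minus strand), the pair that turns on interferon genes once sensors fire, showed no change past the test with IL-4 or construct. IRF3 lay between 77.7 and 111 CPM in all libraries, and its IL-4 changes were 0.02 ± 0.138, -0.03 ± 0.137 and 0.03 ± 0.137 (log2, SE) in IRES, NIC1 and DNMAML cells. IRF7 was at 51.5, 22.4 and 54.5 CPM in unstimulated IRES cells in experiments 1, 2 and 3 and at 62.3, 21.8 and 68.9 CPM with IL-4. Its IL-4 changes of 0.25 ± 0.503, 0.04 ± 0.505 and 0.09 ± 0.501 had the largest errors of the 7 tested IRFs. Without the 2 libraries that stood apart they were 0.47 in IRES and -0.30 in DNMAML cells, so the latter turned sign. IRF7 is itself an interferon-stimulated gene, unlike IRF3, which most cells hold at a steady level.

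The error of IRF7 followed the experiments. Over the 6 libraries of an experiment it had a median of 52.2 CPM (40.4 to 62.3) in experiment 1, 25.9 (21.8 to 37.7) in experiment 2 and 63.9 (54.0 to 78.2) in experiment 3, so experiment 2 did not overlap the others. The sum of 30 interferon-stimulated genes, none of them an IRF, had the same order, with medians of 3155 CPM (2889 to 3843), 866 CPM (676 to 1045) and 3762 CPM (2975 to 5061). IRF1 was also lowest in experiment 2, with a median of 25.6 CPM (20.4 to 29.1) against 39.5 (28.6 to 42.8) and 37.5 (29.5 to 48.3). IRF5 had medians of 20.7, 12.8 and 18.1 CPM. IRF3 ran the other way for experiment 1, with medians of 80.0, 98.4 and 95.0 CPM.

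As shares of the sum of squares of log2 CPM over the 18 libraries, experiment number took 82.0% in IRF7, 62.1% in IRF1, 61.2% in IRF3 and 51.7% in IRF5, against a median of 29.4% over all tested genes. It took 16.3% in IRF8, 7.29% in IRF9 and 2.43% in IRF2. IL-4 took 79.6% in IRF2 and 77.8% in IRF8 and at most 13.6% in the other 5. Construct took 36.8% in IRF5 and at most 8.74% in the other 6. The family thus fell into genes that followed IL-4, genes that followed the experiment, 1 that followed experiment and construct, and IRF9, in which 71.9% stayed unassigned.

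**Figure D4:**
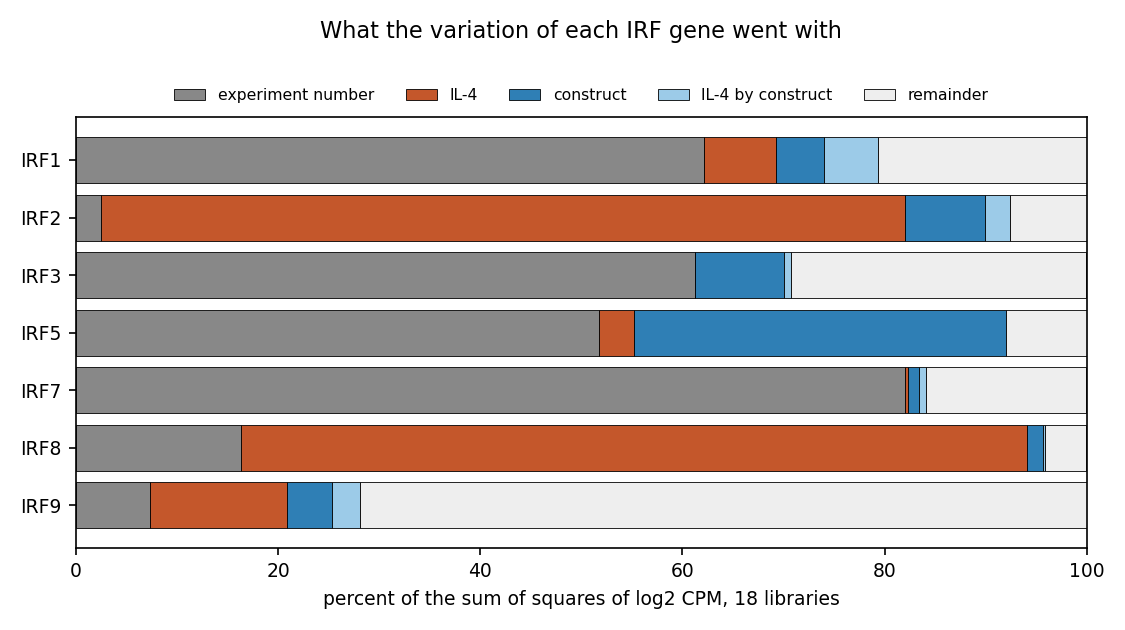
Share of the sum of squares of log2 CPM over 18 libraries (x axis, percent) that went with experiment number, IL-4, construct, IL-4 by construct and the remainder, for the 7 tested IRF genes (y axis). IL-4 takes most of the bar in IRF2 (79.6%) and IRF8 (77.8%), and experiment number in IRF7 (82.0%).

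The 3 genes with a large experiment share that fall together in experiment 2 were also correlated across libraries. Pearson r of log2 CPM over 18 libraries was 0.80 for IRF1 and IRF7, 0.73 for IRF5 and IRF7 and 0.71 for IRF1 and IRF5. Centred within experiments, these were 0.48, 0.41 and 0.34. The points share libraries and experiments, and no test was made.

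IRF1 (ENSG00000125347, chromosome 5, 132481609 to 132490798, minus strand), the activator induced by interferon gamma, was at 35.3 ± 5.59 CPM (SD, n = 3) in unstimulated and 31.9 ± 9.39 CPM in IL-4-treated IRES cells, and at 35.2 ± 5.34 and 27.1 ± 3.46 CPM in NIC1 cells. In DNMAML cells it was at 35.1 ± 6.15 CPM without IL-4 and 37.2 ± 14.8 CPM with it, where its libraries were at 42.8, 20.4 and 48.3 CPM. In NIC1 cells it was lower with IL-4 in 3 of 3 experiments, with a log2 change of -0.38 ± 0.275 that did not pass (edgeR adjusted p = 0.865). With IL-4, NIC1 differed from DNMAML by -0.46 ± 0.274 (adjusted p = 0.579), and experiment 2 ran the other way. Without the 2 libraries that stood apart this difference was -0.23. Of the exon bases of IRF1, 22.0% are also covered by C5orf56 on the opposite strand, which had 675 counts over 18 libraries.

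IRF9 (ENSG00000213928, chromosome 14, 24161053 to 24166565, plus strand) was low, at 3.91 to 8.92 CPM. Its IL-4 changes were -0.18 ± 0.249, -0.36 ± 0.248 and -0.10 ± 0.246 (log2, SE) in IRES, NIC1 and DNMAML cells, and none passed. Without the 2 libraries that stood apart the IRES value was -0.06. Of its exon bases 48.4% are shared with AL136295.5 on the same strand, which had 192 counts over 18 libraries. These are 1838 bases, as many as the longest principal transcript of IRF9 holds (1838), so most or all of that transcript may be shared. Of the exon bases of IRF3, 19.3% are shared with BCL2L12 on the opposite strand. How the counting treated strand and overlaps is not given in the sources used here, so reads in shared exons may be missing from, or added to, these 3 genes.

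The pathway around the IRFs was read from lists of its parts, whose counts stand beside 2.93%, 3.05% and 3.28% of all genes called with IL-4 in IRES, NIC1 and DNMAML cells, and 9.04%, 8.8% and 9.95% with the block. Of 10 interferon genes none had enough counts to be tested: IFNB1 had 2 and IFNL1 3 counts in all 18 libraries, and IFNA1, IFNA2, IFNG, IFNK and IFNE had 0. Of the sensors, adaptors and kinases that activate IRF3, IRF5 and IRF7, 20 of 22 listed were tested and 1 fell in each construct, with none rising, a share of the list close to that of all genes. It was TLR4, the lipopolysaccharide receptor, which went from 39.2 ± 6.07 to 20.8 ± 0.645 CPM in IRES cells, a log2 change of -0.92 ± 0.156 (edgeR adjusted p = 0.0021), and fell by 0.85 in NIC1 and by 0.85 in DNMAML cells on the log2 scale. With the block 3 fell and 1 rose in IRES and in DNMAML cells. Of 11 interferon receptors, JAKs and STATs, 0 were called in any IL-4 response by edgeR, and the block called 1, 2 and 1 lower in IRES, NIC1 and DNMAML cells.

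Among 16 partners and co-regulators of the IRFs, 2 rose with IL-4 in each construct and none fell. Both are BATF proteins, which bind composite elements with IRF4 or IRF8. BATF went from 7.89 ± 2.03 to 33.3 ± 2.41 CPM in IRES cells, a log2 change of 2.07 ± 0.163 (edgeR adjusted p = 8.87e-07), with changes of 1.92 and 1.98 in NIC1 and DNMAML cells. BATF3 rose by 2.30 ± 0.262 in IRES cells (3.89e-05) and by 2.07 and 2.61 in the others. In IRES, NIC1 and DNMAML cells the block called 4, 3 and 4 of the 16 higher.

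Of 30 interferon-stimulated genes, 0 were called in any of the 12 comparisons by edgeR. With the block 1 was higher with IL-4 in IRES and in NIC1 cells, and 1 was lower in NIC1 than DNMAML cells with IL-4. Their median log2 change with IL-4 was 0.24, 0.09 and 0.05 in the 3 constructs. The median difference of NIC1 from DNMAML was -0.42 unstimulated and -0.43 with IL-4. From IRES it was -0.20 and -0.30 in NIC1 cells and 0.30 and 0.14 in DNMAML cells. Medians over all genes were within 0.02 of 0. The summed level of the 30 genes differed between experiments (medians of 3155, 866 and 3762 CPM), so these shifts are descriptions and were not tested. Of 22 tested interferon gamma and IRF1 targets, 2 rose with IL-4 in each construct and none fell. They were SOCS1, a brake on cytokine signalling and a direct STAT6 target too, with a log2 change of 5.72 ± 0.273 in IRES cells (edgeR adjusted p = 2.33e-09), and CD274 (PD-L1), with 1.73 ± 0.344 (0.00795). The block called 4 of 22 higher in each construct.

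Of 14 tested targets of IRF8 and SPI1, 1 rose and 1 fell with IL-4 in each construct. CTSC, a lysosomal protease, went from 223 ± 30.4 to 383 ± 36.7 CPM in IRES cells, a log2 change of 0.78 ± 0.122 (edgeR adjusted p = 0.00107), with changes of 0.75 and 0.71 in NIC1 and DNMAML cells. KLF4, a monocyte transcription factor, had changes of -1.04 ± 0.206 in IRES cells (0.00734), -1.32 in NIC1 and -0.88 in DNMAML cells. The median of the 14 was -0.01, -0.02 and -0.06 in IRES, NIC1 and DNMAML cells. The median thus stayed near that of all genes, while single genes were called in both directions. The block called 3 higher and 2 lower in each construct.

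A list of alternative activation genes was drawn up around IRF4, and 10 of 14 listed were tested. IRF4 itself had 53 counts in all 18 libraries, and whether it acts on these genes was not tested. With IL-4, 5 rose in IRES, 6 in NIC1 and 6 in DNMAML cells, and none fell, with medians of 1.52, 1.27 and 1.32 on the log2 scale. Of the 5 that passed in IRES cells, those with the largest changes were CISH (6.16 ± 0.185, edgeR adjusted p = 4.79e-12), a cytokine-signalling inhibitor known as a STAT target, ALOX15 (3.31 ± 0.232, 2.74e-07), a lipoxygenase of IL-4-treated monocytes, and TGM2 (1.84 ± 0.295, 0.00164), a transglutaminase. FCER2, the low-affinity IgE receptor, rose by 3.25 ± 0.546 in NIC1 (0.00208) and by 3.51 ± 0.813 in DNMAML cells (0.0235), and had a change of 3.11 ± 0.852 in IRES cells (0.0679). Between constructs only TGM2 in unstimulated NIC1 against DNMAML cells passed among genes of these pathway lists in the main model, at 1.32 ± 0.292 (0.0367). Several genes stand on more than 1 list, and the lists were drawn up with results of these data known, so their counts are descriptions.

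Between constructs, the block called some members of the pathway lists. In NIC1 against IRES, where it called 5.37% of all genes unstimulated and 5.44% with IL-4, it called 2 of 16 partners higher in each state, 1 of 11 receptors, JAKs and STATs higher unstimulated, and 2 of 22 interferon gamma and IRF1 targets lower with IL-4. Of the 14 IRF8 and SPI1 targets it called 2 higher unstimulated, and 3 higher and 1 lower with IL-4. Of the 10 alternative activation genes it called 2 higher with IL-4. In NIC1 against DNMAML, where it called 13.8% and 12.6% of all genes, it called 3 of 20 sensors, adaptors and kinases lower in each state and 1 of 11 receptors, JAKs and STATs higher unstimulated. It called 2 of 16 partners higher in each state and 1 lower with IL-4, and 1 of 22 interferon gamma and IRF1 targets lower unstimulated and 4 with IL-4. Of 30 interferon-stimulated genes it called 1 lower with IL-4. Of the 14 IRF8 and SPI1 targets it called 5 lower and 3 higher in each state. Of the 10 alternative activation genes it called 1 higher and 1 lower unstimulated and 4 higher with IL-4.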

How the data were processed

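Per the labels' protocols, total RNA was isolated on columns and made into TruSeq RNA libraries. The deposited files hold whole-number read counts per Ensembl gene made by the authors, not normalized. Build GRCh38.p12 is named in the submitters' processing notes, along with HTSeq, HISAT2, Trimmomatic, FastQC and DESeq2. For tool versions, strand handling and the gene annotation, nothing is given in the sources used here. Entries that name no gene held 23.8% to 30.9% of reads per library and were left out. Of 58051 genes, 57447 were found in GENCODE 29, the source of symbols, loci and exon lengths.

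Genes were kept by filterByExpr (15037 of them) and scaled by TMM. Levels are CPM with the SD over 3 libraries. Groups were compared by the quasi-likelihood test of edgeR (robust, 6 group means, 18 libraries), Benjamini-Hochberg adjusted over 15037 genes in each of 12 comparisons, with a threshold of 0.05. The SE of a log2 change comes from the F statistic. Log2 CPM for correlations and shares used a prior count of 2. Promoter windows are RefSeq's. The procedure was checked on simulated counts. Software was edgeR 4.0.16 and DESeq2 1.42.0 (with limma 3.58.1) in R 4.3.3, and matplotlib 3.10.9 in Python 3.11.15.

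Experiment numbers come from the sample titles, and that they pair the libraries is read from the data. The main model left this pairing out. Deviations from group means correlated between libraries of one number in all 45 pairs (Pearson r of 0.206 to 0.758, median 0.465). The 90 pairs with different numbers ran from -0.654 to 0.352, with a median of -0.396, so the 2 ranges overlapped. Deviations from a mean of 3 libraries sum to 0, so the negative median is no separate evidence of pairing. Values with that number as a block are given where they change a call or move a count by over 1.5 times. Libraries of one group differed by more than counting noise (chi-square over degrees of freedom of 5.45 to 48.5), so none was merged. The members, pathway lists and marker lists were chosen with earlier results of these data known. Of the pathway lists, up to 3 called genes per list and comparison with the largest log2 changes are named, and for each member called in the main model the 3 genes with the highest Pearson r. One list entry of 199 had no match. Alternatives were DESeq2's size factors, DESeq2, no filter, the experiment block, a block of construct and experiment, only the groups compared, leaving out 2 libraries with many genes detected, and leaving out each library.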

Additional observations from a re-analysis of the deposited data

How the results depend on the processing

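None of the log2 changes of IRF2, IRF5 and IRF8 that passed the test in either model changed sign under the settings run. The number of IRFs called by edgeR for the IL-4 response (2 in IRES, 2 in NIC1, 1 in DNMAML cells) was 0 and 0 in IRES and NIC1 cells with no filter on low counts, which tests 34275 genes in place of 15037. It was 0, 1 and 0 in IRES, NIC1 and DNMAML cells when only the groups compared were fitted, which leaves fewer libraries to estimate the spread, and 0 in IRES and 1 in NIC1 cells without the 2 libraries in which most genes were detected. In DNMAML cells it was 2 with DESeq2, 2 with the replicate block and 2 with a block of construct and replicate. With the replicate block, 1 IRF was called in NIC1 against IRES unstimulated and 1 with IL-4, and 1 in NIC1 against DNMAML unstimulated and 2 with IL-4, where the main model called 0. The pairing changed no other call among the IRFs. Leaving out 1 library gave 0 to 2 calls in IRES, 0 to 1 in NIC1 and 1 to 2 in DNMAML cells, and 0 to 0 in every other comparison. The group concerned then has 2 libraries. Settings other than the blocks were fitted without one, so differences between experiments stayed in their error. DESeq2's size factors moved the median of all genes by less than 0.02 and changed no call. The order of the IRF levels by other gene lengths was an alternative added after seeing the data. Depth limits IRF4, whose counts are too low to test, and the spread between experiments limits IRF7.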
